A study of Mus musculus with 12 samples.

Results

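DNA repair genes, among them those that class switch recombination needs, were followed across arrays labelled as resting and activated B and T cells of the mouse spleen. The list held 47 genes, taken by name, and 44 of them were measured by a probe set paired with 1 gene symbol, out of 19937 genes measured in all. Dclre1c and Xrcc2 had no such probe set and Rnf8 shared its probe set with another symbol, so no value is given for these. The 44 genes fell into 6 groups, with 9 in base excision and single-strand break repair, 4 in mismatch repair, 6 in end joining, 9 in break signalling, 9 in homologous recombination and 7 in the Fanconi pathway.

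Gene expression was measured in total RNA with 12 mouse gene arrays from Affymetrix, and each of the 4 labelled groups had 3. All cells came from the spleen of F1 mice of C57BL/6 and FVB parents, whose age is not given in the sources used here, and the labels name no transgene or deletion in any group. Resting B cells were CD43-negative and resting T cells B220-negative, and both were taken straight from the spleen on day 0. Activated B cells had been cultured for 4 days with αCD40 and IL-4, and activated T cells for 4 days with αCD3, αCD28 and IL-2 by the labels (αCD3 in the paper). The labels number the arrays 1 to 3 in the B groups and 4 to 6 in the T groups but do not say whether they came from separate mice. Xist, a gene of female cells, ran from 3.91 to 10.62 in resting B and 4.36 to 10.8 in activated B. It ran from 4.11 to 10.89 in resting T and 4.04 to 11.24 in activated T. The arrays of a group thus did not all come from the same mouse, and each group mixed the sexes. The mix differed between the labelled cell types, with Xist means of 6.18 in resting B, 6.56 in activated B, 8.6 in resting T and 8.81 in activated T. Sex was not part of the fit. The number of mice is not known, and p-values measure the spread between these arrays, which may be technical in part. Levels are log2 values, on which a difference of 1 is 2-fold, and 95% of 1027 olfactory receptor genes, which lymphocytes do not use, lay below 5.21, taken here as the background. No repair gene had a mean over all arrays at or below it, whereas 7767 of the 19937 genes did. The shares over all genes given below count these dim genes too.

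The lineage markers went against the cell type labels. The mean level of 11 T cell markers (Cd3e and Cd3d among them) was 9.75 to 9.93 in the arrays labelled resting B and 9.25 to 9.34 in those labelled activated B, against 5.02 to 5.48 in resting T and 5.26 to 6.13 in activated T. The mean of the 11 B cell markers, Cd79a and Cd79b among them, ran the other way, with 7.02 to 8.36 in resting B, 4.73 to 5.13 in activated B, 8.96 to 9.37 in resting T and 11.10 to 11.27 in activated T. Of these, Cr2 alone was called higher in resting B than resting T, 8 were lower and 2 were not called. The 11 myeloid markers were at 6.50 to 7.08 in resting B, 6.16 to 6.60 in activated T, 5.46 to 5.68 in resting T and 4.64 to 4.75 in activated B. The 11 markers of dividing cells, such as Mki67 and Top2a, lay at 9.76 to 9.81 in activated B and 9.18 to 9.27 in resting T, but only at 5.74 to 6.09 in resting B and 5.42 to 6.08 in activated T. The 12 markers of S phase followed the dividing cell markers, with 9.41 to 9.51 in activated B, 8.96 to 9.11 in resting T, 6.85 to 7.20 in resting B and 6.60 to 6.80 in activated T. No array was moved to another group. Every group name below is that of the labels, and a direction between B and T, or between resting and activated, holds only for arrays so labelled. In RNA of whole cell populations, fewer cells that express a gene and less RNA per cell cannot be told apart.

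Antibody genes are changed after their assembly by way of damaged DNA. Uracils made in the switch regions in front of the constant genes are removed by base excision repair or recognised by mismatch repair, the resulting breaks are sensed by the break signalling kinases, and end joining connects a distant pair of them, so that the cell makes another class of antibody. Homologous recombination and the Fanconi pathway serve mainly the copying of the genome. They repair broken forks and crosslinks with the sister chromatid as a template, and many of their genes are transcribed in the G1 to S phase of dividing cells. T cells do not switch but divide as B cells do, and both use end joining to assemble their receptor genes earlier in life.

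The repair genes were higher in activated than in resting B arrays. Of the 44, 30 were called higher (adjusted p under 0.05 with limma), against 19.7% of all genes, and 2 were called lower, against 16.7% of all genes. The median log2 fold change was 0.83, against -0.02 over all genes, and 21 genes were at least 2-fold higher. All 9 genes of homologous recombination and all 7 of the Fanconi pathway were called higher, with medians of 2.40 and 1.92. In base excision repair 5 of 9 were higher, in mismatch repair 3 of 4 and in break signalling 4 of 9, with none lower in these groups. End joining was the one split group, with 2 genes higher, 2 lower and 2 not called, and a median of 0.13. The dividing cell markers moved with these genes, since 11 of 11 were called higher and by a median of 3.85. The B cell markers (11 of 11 lower, median -2.37) and the myeloid markers (9 of 11 lower, median -1.86) moved as well, and the part of these markers in the result was not tested.

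Between activated and resting T arrays, which share no array with the B comparison, the genes ran the opposite way. Here 28 of the 44 were called lower, against 17.8% of all genes, and 2 were called higher, against 15.9% of all genes. The median was -0.55, against 0.02 over all genes, and 17 were at least 2-fold lower. Homologous recombination had 8 of 9 genes lower with a median of -2.01, the Fanconi pathway 5 of 7 with a median of -0.61, base excision repair 5 of 9, break signalling 5 of 9, mismatch repair 3 of 4 and end joining 2 of 6. The 11 dividing cell markers were all called lower too, by a median of -3.54. The B cell markers (10 of 11 higher, median 1.31) and the myeloid markers (7 of 11 higher, median 0.89) moved the other way, and the part of these markers was not tested.

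**Figure D1:**
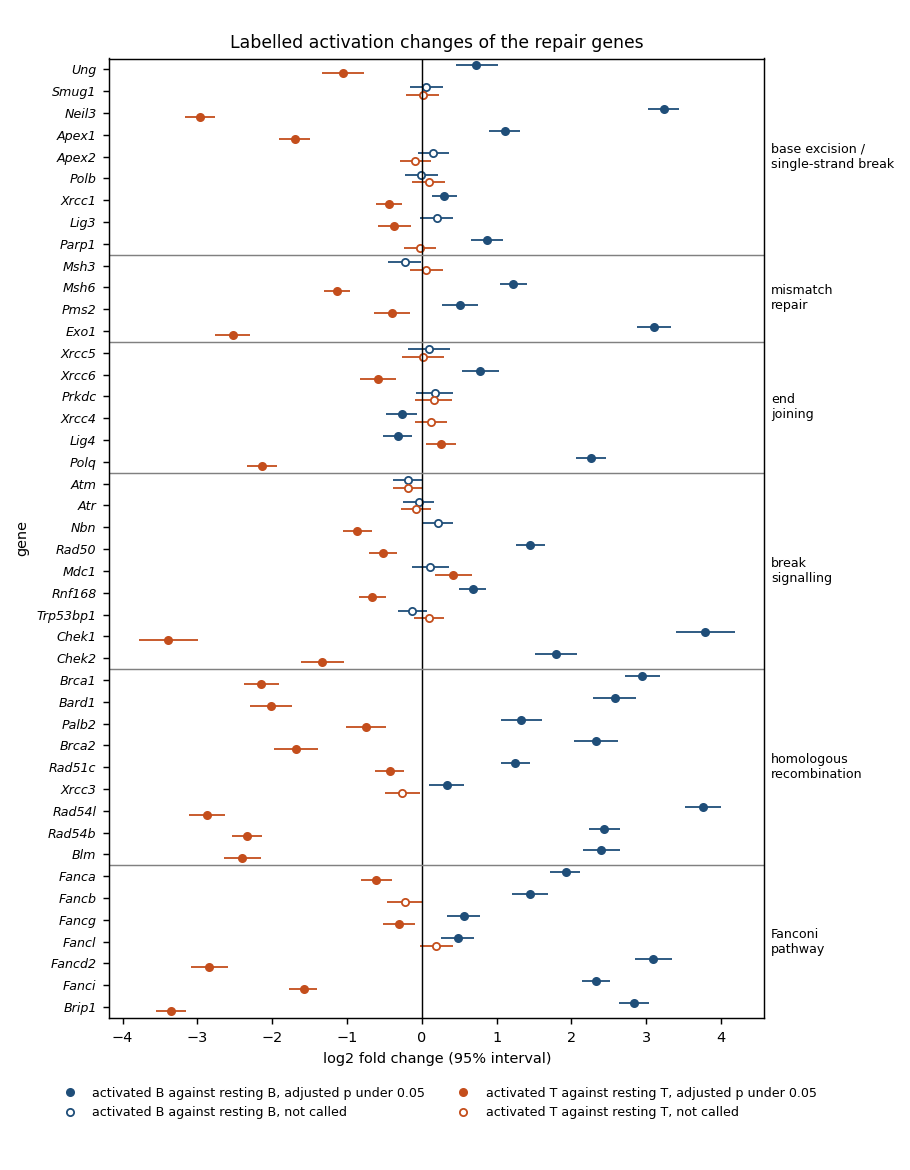
Log2 fold change of each measured repair gene (rows, grouped by pathway) between activated and resting arrays, for the labelled B groups in blue and the labelled T groups in red. Points are estimates from 3 arrays against 3, lines their 95% intervals, and filled points passed an adjusted p of 0.05. Most genes of homologous recombination and the Fanconi pathway lie to the right in blue and to the left in red, whereas the intervals of the Ku subunit Xrcc5 and the kinase Prkdc include 0 in both.

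Gene by gene, 26 of the 44 were higher in activated B than in resting B and lower in activated T than in resting T, against 12.9% of all genes. The ligase gene Lig4 was the only one called the other way in both, against 9.89% of all genes, and with the replicate block its T call was lost (adjusted p = 0.0753). No gene was called in the same direction in both. Parp1, Xrcc4, Xrcc3, Fancb and Fancl were called in the B comparison alone, and Lig3, Nbn and Mdc1 in the T comparison alone, which by itself does not show that the changes differ. That difference was tested as the interaction (the change between resting and activated B minus that between resting and activated T). It was called in the positive direction for 31 of 44 genes, against 21.9% of all genes, and in the negative direction for 2, against 20.9% of all genes, with a median of 1.51 against -0.03 over all genes. Among the 8 genes called in 1 comparison alone, the interaction was called for Parp1, Xrcc4, Xrcc3, Fancb, Lig3 and Nbn, and it did not reach the threshold for Fancl (0.29, adjusted p = 0.128) or Mdc1 (-0.31, adjusted p = 0.147).

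The interaction sets the activated B and resting T arrays on one side and the resting B and activated T arrays on the other. For 28 of the 44 genes, each of the 6 arrays of the first side lay above each of the 6 of the second, against 12% of all genes, and for 0 genes all lay below, against 8.05% of all genes. These were 8 of the 9 genes of homologous recombination, 6 of the 7 of the Fanconi pathway, 5 of the 9 of break signalling, 4 of the 9 of base excision repair, 3 of the 4 of mismatch repair and 2 of the 6 of end joining. Replicates lay close together beside these differences. The SD within a group had a median of 0.09 over the genes, and the highest was 0.46, for Chek1 in resting B.

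**Figure D2:**
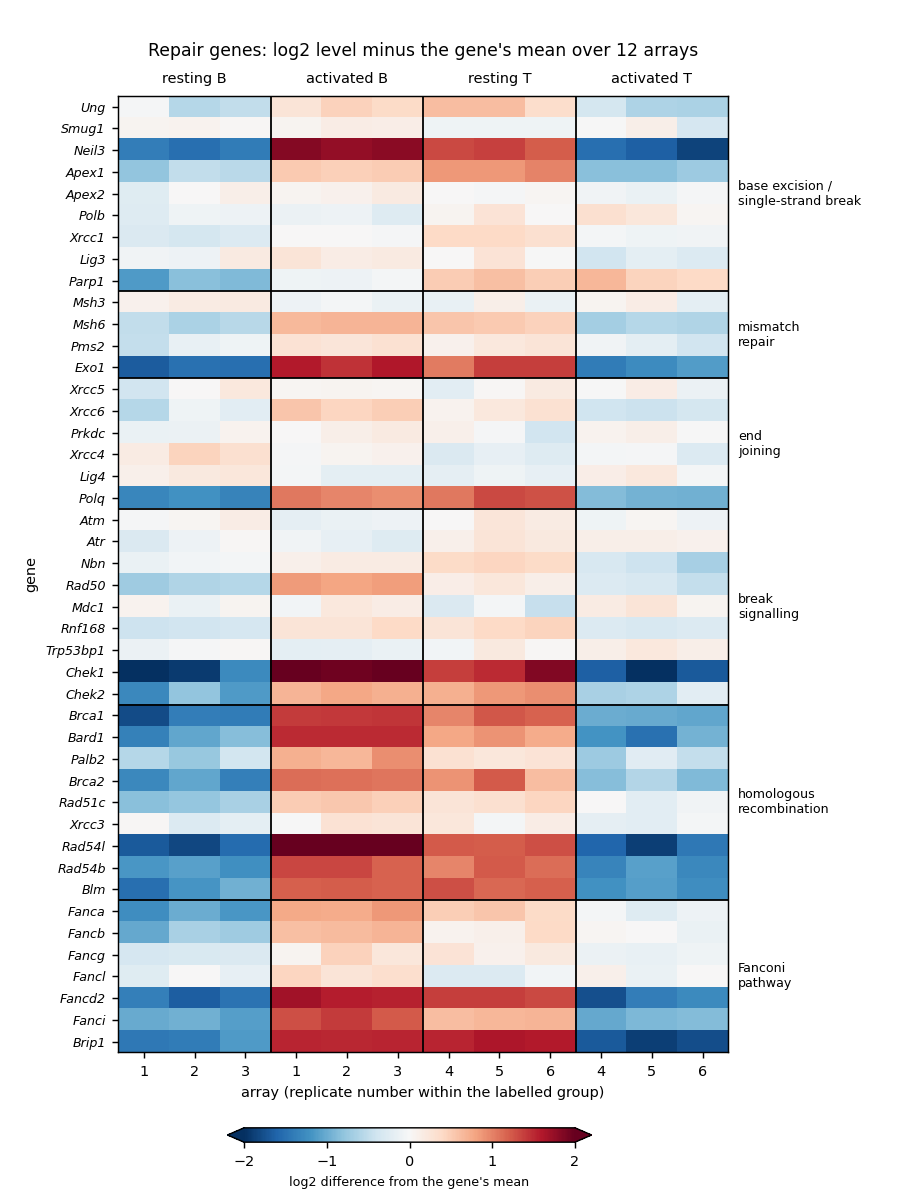
Level of every measured repair gene (rows) in every array (columns, 3 for each labelled group), as the log2 difference from the mean of the gene over the 12 arrays. Colours end at 2 in either direction. Most genes of homologous recombination and the Fanconi pathway are red in the activated B and resting T arrays and blue in the others. Of these, Xrcc3, Fancg and Fancl are pale, and Fanca and Fancb lie close to their mean in activated T. Smug1, Apex2, Xrcc5 and Prkdc are pale throughout.

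Because so many of the genes moved together, their promoters were searched for letters bound by factors of the cell cycle. Promoters from 250 bases before to 50 after a gene start were taken from RefSeq (mouse build GRCm38.p6), which held 36 of the 44 genes. The E2F site, bound by the E2F factors at genes used for DNA synthesis, was searched as TTTCCCGC, TTTCGCGC, TTTGCCGC or TTTGGCGC, the CHR element, bound by the complexes that keep late cell cycle genes silent at rest, as TTTGAA, and the CCAAT box, bound by NF-Y, as CCAAT. All were searched on both strands and matches were allowed to overlap. The E2F letters were found for 9 of the 36 genes. They are shown because these are the repair promoters that hold the letters, with the match in capitals and up to 20 bases on each side, 5′ to 3′ on the strand of the gene:
Msh6 (mismatch repair), chr17:87975045-87975092, plus strand: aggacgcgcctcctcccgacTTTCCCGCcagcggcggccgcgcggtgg
Xrcc6 (end joining), chr15:82016303-82016350, plus strand: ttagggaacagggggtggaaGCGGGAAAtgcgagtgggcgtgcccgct
Chek2 (break signalling), chr5:110839811-110839858, plus strand: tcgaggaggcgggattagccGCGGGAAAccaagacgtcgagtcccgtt
Brca2 (homologous recombination), chr5:150522433-150522480, plus strand: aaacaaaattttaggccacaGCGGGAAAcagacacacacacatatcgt
Bard1 (homologous recombination), chr1:71103154-71103201, minus strand: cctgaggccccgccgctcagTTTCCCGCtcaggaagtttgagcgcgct
Rad51c (homologous recombination), first of 2 starts, chr11:87404932-87404979, minus strand: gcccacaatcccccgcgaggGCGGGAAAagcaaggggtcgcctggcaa
Rad51c (homologous recombination), the other start, chr11:87404468-87404515, minus strand: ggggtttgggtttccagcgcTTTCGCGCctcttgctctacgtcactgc
Fancg (Fanconi pathway), chr4:43010326-43010373, minus strand: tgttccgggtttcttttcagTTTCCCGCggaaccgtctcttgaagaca
Msh3 (mismatch repair), chr13:92355174-92355225, minus strand: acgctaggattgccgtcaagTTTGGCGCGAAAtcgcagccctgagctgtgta
Mdc1 (break signalling), chr17:35841462-35841509, plus strand: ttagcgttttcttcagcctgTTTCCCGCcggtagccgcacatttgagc
The first 7 of these genes are among the 28 whose 6 arrays lay above the other 6, and Msh3 and Mdc1 are not. The capitals of Msh3 are 2 overlapping matches, 1 on each strand.

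The E2F letters were present in 7 of 23 genes (30.4%) with the 6-above-6 pattern that have a promoter here, in 2 of 13 (15.4%) of the other repair genes and in 2.60% of all 27025 genes with a promoter. Over the 15613 of those genes that the arrays measured, the share was 3.48%. CCAAT was present in 13 of the 23 (56.5%), in 5 of the 13 (38.5%) and in 41.1% of all genes. TTTGAA was present only for Bard1 and Polq among the repair genes, which is 8.70% of the 23, against 20.2% of all genes. Both promoters are shown whole, with TTTGAA, its reverse complement TTCAAA and the E2F letters in capitals:
Bard1, chr1:71102923-71103222, minus strand: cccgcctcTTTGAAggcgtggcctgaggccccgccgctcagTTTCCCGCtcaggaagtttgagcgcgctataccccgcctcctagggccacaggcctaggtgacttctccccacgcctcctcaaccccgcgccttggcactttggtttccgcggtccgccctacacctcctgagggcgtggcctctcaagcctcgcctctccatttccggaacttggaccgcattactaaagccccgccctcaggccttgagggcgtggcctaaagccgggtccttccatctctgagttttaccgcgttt
Polq, chr16:37011536-37011835, plus strand: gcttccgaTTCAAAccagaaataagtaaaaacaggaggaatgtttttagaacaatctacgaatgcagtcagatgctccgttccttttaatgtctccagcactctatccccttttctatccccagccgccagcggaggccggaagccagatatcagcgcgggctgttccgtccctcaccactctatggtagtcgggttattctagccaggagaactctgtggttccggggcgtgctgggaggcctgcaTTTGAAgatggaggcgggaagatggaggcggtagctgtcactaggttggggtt
A match describes these letters and is not evidence of binding. The window also sets what is found, since that of Chek1 ends in GCGGGAA and a match there may be cut off by its edge. Whether the letters bear on the size of a change was not tested.

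**Figure D3:**
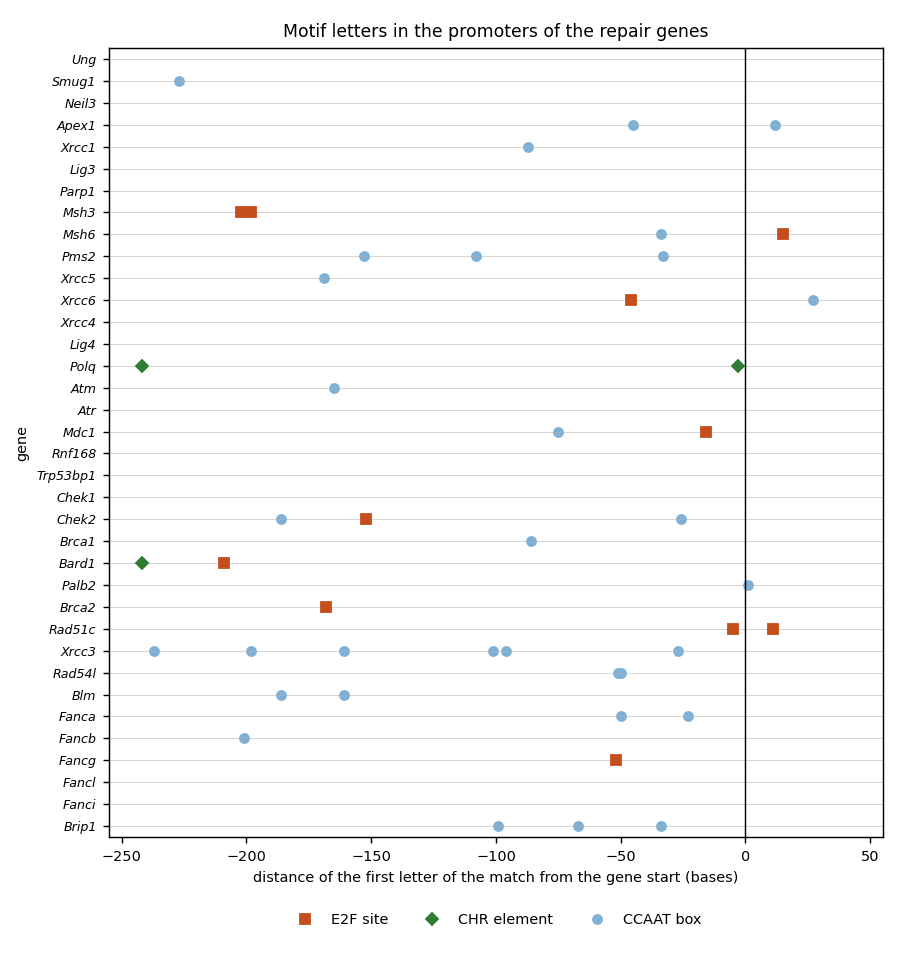
Matches to the E2F, CHR and CCAAT letters in the promoters of the 36 repair genes found in RefSeq (rows), by the distance in bases of the first letter of the match from the gene start. A gene with 2 promoters shows the matches of both. E2F letters (squares) occur in 9 genes at scattered distances, and TTTGAA (diamonds) in Bard1 and Polq.

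In base excision and single-strand break repair, Neil3 changed most. Neil3, a glycosylase of oxidised bases that also opens crosslinks, was at 5.13, 5.01 and 5.11 in resting B, 8.35, 8.27 and 8.32 in activated B, 7.83, 7.89 and 7.73 in resting T and 5.01, 4.88 and 4.66 in activated T. Both low groups lay below the background, so that the level in activated B was at least 8.59-fold that in resting B and the level in resting T at least 6.09-fold that in activated T (log2 fold changes of 3.23 and -2.97, SE 0.10 each, adjusted p = 4.2e-13 and 1.4e-12). Ung, which removes the uracils of switch regions and is the main glycosylase of class switching, stood at 6.91, 6.37 and 6.44 in resting B and 7.20, 7.39 and 7.32 in activated B, a difference of 0.73 (SE 0.13, adjusted p = 0.0003). In the T groups Ung read 7.56, 7.55 and 7.28 at rest against 6.58, 6.32 and 6.31 after activation, a difference of -1.06 (SE 0.13, adjusted p = 7.5e-06). All 6 arrays of activated B and resting T lay above the other 6. Smug1, the other uracil glycosylase measured, lay between 5.24 and 5.73 in every array, and the 95% intervals of its changes were -0.16 to 0.28 in the B groups and -0.21 to 0.23 in the T groups.

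Apex1, the nuclease that cuts the strand where a base was removed, was at 8.25, 8.55 and 8.51 in resting B, 9.56, 9.52 and 9.55 in activated B, 9.91, 9.91 and 10.03 in resting T and 8.20, 8.21 and 8.32 in activated T. It was thus highest in resting T, with changes of 1.11 in the B groups and -1.70 in the T groups (SE 0.09 each, adjusted p = 7.1e-08 and 3.5e-10). Its relative Apex2 was called in no comparison, with changes of 0.15 (interval -0.05 to 0.36) and -0.09 (-0.29 to 0.12). The scaffold Xrcc1 changed by 0.30 and -0.44 (adjusted p = 0.0058 and 0.0003). The polymerase Polb, which fills the gap, was called in neither, at -0.01 and 0.09. The ligase Lig3 was lower in activated than resting T (-0.37, adjusted p = 0.0105) and stood at 0.20 in the B comparison (adjusted p = 0.165).

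Parp1, the sensor of strand breaks, kept another order. It was at 8.24, 8.54 and 8.49 in resting B, 9.28, 9.27 and 9.33 in activated B, 9.88, 9.97 and 9.86 in resting T and 10.03, 9.82 and 9.77 in activated T. All 6 T arrays lay above all 6 B arrays, and the T groups overlapped each other. Its change was 0.87 in the B groups (SE 0.10, adjusted p = 2.5e-06) and -0.03 in the T groups (SE 0.10, adjusted p = 0.885), with an interaction of 0.90 (SE 0.14, adjusted p = 5.4e-05). The mean of the B cell markers, too, was higher in every T array than in every B array, and whether it bears on Parp1 was not tested.

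In mismatch repair, Exo1, the exonuclease that widens the nick to a gap, was at 4.82, 4.99 and 4.97 in resting B, 8.07, 7.93 and 8.08 in activated B, 7.52, 7.86 and 7.86 in resting T and 5.09, 5.22 and 5.36 in activated T. With the resting B arrays below the background, activated B was at least 7.05-fold higher (log2 fold change 3.10, SE 0.11, adjusted p = 1.9e-12), and activated T was lower than resting T by 2.53 (log2 fold change -2.53, SE 0.11, adjusted p = 2.3e-11). Msh6, the mismatch binding partner used for single-base mispairs, changed by 1.22 and -1.14 (SE 0.08 each, adjusted p = 3.9e-09 and 1.1e-08). Its 6 arrays of activated B and resting T lay between 8.47 and 8.68 and the other 6 between 7.32 and 7.51. The nuclease subunit Pms2 changed by 0.51 and -0.40 (adjusted p = 0.00148 and 0.00953). Msh3, the partner that binds larger loops, was called in no comparison, at -0.23 (interval -0.45 to -0.01, adjusted p = 0.0965) and 0.06 (-0.16 to 0.28).

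In end joining, Xrcc5 and Prkdc were called in no comparison and Polq changed most. The Ku subunit Xrcc5 lay at 7.81, 8.20 and 8.39 in resting B, 8.22, 8.24 and 8.22 in activated B, 7.98, 8.21 and 8.36 in resting T and 8.18, 8.34 and 8.07 in activated T, so the 4 groups overlapped. The intervals of its changes were -0.19 to 0.38 and -0.27 to 0.30. The kinase Prkdc, which Ku recruits, changed by 0.17 (-0.08 to 0.41) and 0.16 (-0.09 to 0.40). The other Ku subunit, Xrcc6, did change, by 0.78 and -0.58 (adjusted p = 3e-05 and 0.0006).

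Among the listed repair genes, only the ligase Lig4 and its partner Xrcc4 were called lower in activated than resting B. Lig4 was at 6.87, 6.96 and 6.99 in resting B, 6.73, 6.56 and 6.57 in activated B, 6.58, 6.68 and 6.59 in resting T and 6.90, 6.98 and 6.73 in activated T. The change was -0.32 in the B groups (SE 0.09, adjusted p = 0.0111) and 0.25 in the T groups (SE 0.09, adjusted p = 0.0473). With the replicate block, which fits same-numbered arrays as pairs, the T change had an adjusted p of 0.0753. Xrcc4 changed by -0.27 in the B groups (adjusted p = 0.0438, and 0.0528 with the replicate block) and by 0.12 in the T groups (adjusted p = 0.409). Polq, the polymerase of the alternative route that joins ends through short repeats, was at 5.68, 5.77 and 5.65 in resting B and 8.04, 7.95 and 7.91 in activated B, a 4.79-fold difference (2.26, SE 0.09, adjusted p = 8.9e-12). In resting T it was at 8.03, 8.30 and 8.26 and in activated T at 6.12, 6.04 and 6.02 (-2.14, SE 0.09, adjusted p = 2.2e-11).

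In break signalling, Chek1 changed most. Chek1, which halts the cycle when forks stall, was at 4.75, 5.01 and 5.65 in resting B, 8.95, 8.87 and 8.97 in activated B, 8.31, 8.42 and 8.78 in resting T and 5.29, 4.82 and 5.25 in activated T. Its level was at least 11.9-fold higher in activated than resting B and at least 9.54-fold higher in resting than activated T, the dim groups having means below the background (log2 fold changes 3.79 and -3.39, SE 0.19 each, adjusted p = 8e-11 and 3.3e-10). Chek2, the kinase downstream of Atm, changed by 1.79 and -1.33 (SE 0.13 each, adjusted p = 1.4e-08 and 5.4e-07).

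The kinases that start the signal were called in neither comparison. Atm stood at -0.19 in both (adjusted p = 0.137 and 0.13) and Atr at -0.04 and -0.08 (adjusted p = 0.784 and 0.612). Trp53bp1, which protects break ends for joining, was called in neither, at -0.13 and 0.09. The ubiquitin ligase Rnf168, which marks chromatin at breaks for it, changed by 0.68 and -0.66 (SE 0.09 each, adjusted p = 6.5e-06 and 1e-05). The scaffold Mdc1 stood at 0.11 in the B groups (adjusted p = 0.515) and was higher in activated than resting T by 0.42 (SE 0.12, adjusted p = 0.00807).

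Rad50 and Nbn work in 1 complex that holds break ends. On the probe sets used, their estimates had the same signs but different sizes, and the difference between the genes was not tested. Rad50 was at 7.65, 7.77 and 7.80 in resting B, 9.22, 9.15 and 9.21 in activated B, 8.50, 8.60 and 8.49 in resting T and 8.09, 8.05 and 7.89 in activated T, changes of 1.45 and -0.52 (SE 0.09 each, adjusted p = 1.2e-09 and 0.00017). Nbn changed by 0.22 in the B groups (SE 0.10, adjusted p = 0.0938) and by -0.86 in the T groups (SE 0.10, adjusted p = 1.7e-06). The probe sets of Nbn disagreed, however. A second, dimmer one gave -0.04 and 0.32, so that the direction of Nbn in the T groups rests on the brighter probe set.

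In homologous recombination, Rad54l, a motor protein that drives strand exchange, was at 5.61, 5.47 and 5.75 in resting B, 9.31, 9.34 and 9.46 in activated B, 8.52, 8.51 and 8.58 in resting T and 5.71, 5.41 and 5.87 in activated T. That is 13.5-fold higher in activated than resting B (3.76, SE 0.11, adjusted p = 4.2e-13) and 7.32-fold lower in activated than resting T (-2.87, SE 0.11, adjusted p = 7.6e-12). Its relative Rad54b changed by 2.44 and -2.33 (SE 0.10 each), and with both low groups below the background the bounds were at least 4.55-fold and at least 4.01-fold. Blm, a helicase that dissolves joined chromosomes, was at 8.25, 8.26 and 8.23 in activated B and 8.35, 8.20 and 8.25 in resting T, against 5.55 to 6.10 in the other 6 arrays. Its changes were 2.40 and -2.40 (SE 0.12 each, adjusted p = 6e-11 and 7.1e-11).

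The tumour suppressors of this pathway followed the same order. Brca1 was at 5.25, 5.66 and 5.64 in resting B, 8.44, 8.46 and 8.47 in activated B, 8.02, 8.29 and 8.22 in resting T and 6.05, 6.03 and 6.01 in activated T (2.94 and -2.15, SE 0.11 each, adjusted p = 3.4e-12 and 1.6e-10). Its partner Bard1 changed by 2.58 and -2.01 (SE 0.13 each), at least 5.58-fold and at least 3.56-fold since both low groups had means below the background. Bard1 has 3 probe sets, and the others gave 1.73 and 0.83 in the B groups and -1.06 and -0.43 in the T groups, so its size depends on the probe set and its direction does not. Brca2, the loader of the recombinase, changed by 2.33 and -1.68 (SE 0.14 each), and Palb2, which links it to Brca1, by 1.33 and -0.75 (SE 0.13 each). For Brca2 the resting B arrays lay below the background, and the bound there was at least 4.25-fold. For Palb2 both low groups had means below it, with bounds of at least 2.21-fold and at least 1.52-fold.

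Among the listed genes of this pathway, the recombinase paralogues Rad51c and Xrcc3 moved least. This does not hold for all paralogues. Rad51b, which is outside the list, changed by 2.58 in the B groups (SE 0.10, adjusted p = 3.4e-12). Its means were 7.24 in resting T and 5.12 in activated T. Rad51c changed by 1.25 and -0.43 (SE 0.09 each, adjusted p = 1.1e-08 and 0.00123). Xrcc3 had the smallest change of the listed genes of this pathway (0.33 in the B groups, SE 0.11, adjusted p = 0.0283). It was at 6.58, 6.28 and 6.36 in resting B and 6.55, 6.85 and 6.81 in activated B, groups that overlapped. In the T groups it stood at -0.26 (adjusted p = 0.0974).

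In the Fanconi pathway, all 7 genes were higher in activated than resting B, and Fancd2 and Fanci, which form the clamp loaded at crosslinks, and the helicase Brip1 had the largest values. Fancd2 was at 4.98, 4.71 and 4.88 in resting B, 8.03, 7.93 and 7.89 in activated B, 7.74, 7.74 and 7.68 in resting T and 4.60, 4.97 and 5.08 in activated T, so that the low arrays all lay below the background. The difference was at least 6.68-fold in the B groups and at least 5.70-fold in the T groups (3.09 and -2.84, SE 0.12 each, adjusted p = 3.3e-12 and 1.1e-11). Fanci changed by 2.33 and -1.58 (SE 0.09 each, adjusted p = 3.4e-12 and 3.5e-10). Brip1 was at 4.90, 4.93 and 5.19 in resting B, 7.85, 7.83 and 7.85 in activated B, 7.85, 7.95 and 7.91 in resting T and 4.64, 4.45 and 4.56 in activated T (2.84 and -3.35, SE 0.10 each), which is at least 6.20-fold and at least 6.47-fold.

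The other 4 genes belong to the core complex, which attaches ubiquitin to that clamp. Fanca was at 5.80, 6.05 and 5.88 in resting B, 7.80, 7.78 and 7.91 in activated B, 7.54, 7.60 and 7.42 in resting T and 7.0, 6.79 and 6.94 in activated T (1.92 and -0.61, SE 0.10 each, adjusted p = 1e-10 and 8.3e-05). Fancb changed by 1.44 in the B groups (adjusted p = 2.7e-08) and stood at -0.22 in the T groups (adjusted p = 0.172). Fancg changed by 0.56 and -0.31 (adjusted p = 0.00027 and 0.0286). Fancl, the ligase of the complex, changed by 0.48 in the B groups (adjusted p = 0.00131) and stood at 0.19 in the T groups (adjusted p = 0.202).

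**Figure D4:**
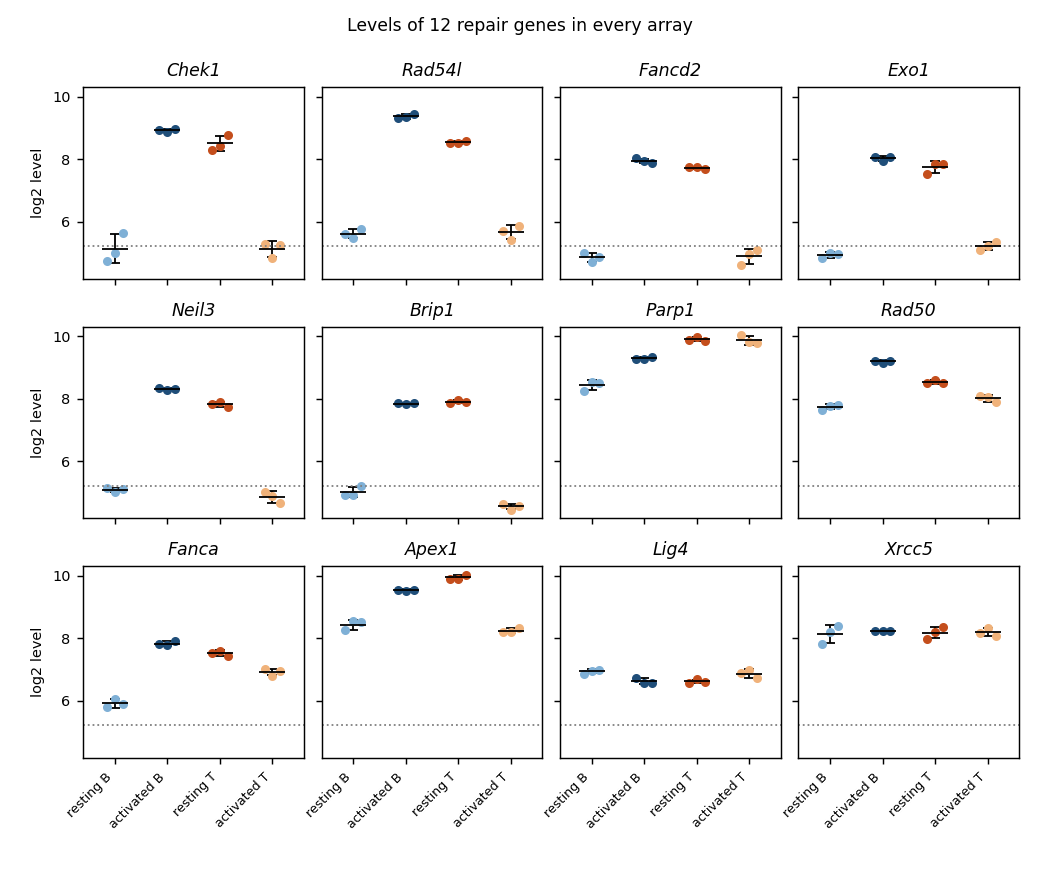
Log2 level of 12 repair genes in each array (points, 3 for each labelled group), with the mean and SD of the group as a dash and bars and the background of 5.21 as a dotted line. Chek1, Rad54l, Fancd2, Exo1, Neil3 and Brip1 are high in activated B and resting T, Parp1 is higher in every T array than in every B array, and the 4 groups of Xrcc5 overlap.

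The opposite changes in the B and T groups were of unequal size for some genes, which was tested as the sum of both. For a gene with opposite changes, a positive sum means that the rise from resting to activated B was larger than the fall from resting to activated T. It was called positive for 13 of 44 genes, against 8.02% of all genes, and negative for 3, against 6.65% of all genes. Not all of these had opposite changes. Both estimates were positive for Mdc1 (0.11 in the B groups and 0.42 in the T groups) and Fancl (0.48 and 0.19). That of Parp1 in the T groups was -0.03. The sums of these genes do not set a rise against a fall. The positive ones included 5 of 9 genes of homologous recombination and 4 of 7 of the Fanconi pathway. Among them, Brca2 had its resting B arrays below the background, and Palb2 the means of both low groups. The size of the sum is therefore not exact for Brca2 and Palb2. The largest sum was that of Fanca (1.31, SE 0.14, adjusted p = 3.1e-06), followed by Fancb (1.22, SE 0.16, adjusted p = 3.9e-05), Rad50 (0.93), Rad54l (0.89), Parp1 (0.84), Rad51c (0.82) and Brca1 (0.80). Apex1 (-0.60, SE 0.13, adjusted p = 0.00485) and Nbn (-0.64) had negative sums, and that of Nbn was lost with the mean of its probe sets (adjusted p = 0.478). The third negative call, that of Brip1, rests on resting B and activated T arrays that all lay below the background, and no size is read from it. For Blm the sum was 0.01 (interval -0.34 to 0.35) and for Msh6 0.09 (-0.16 to 0.34).

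The groups with high dividing cell markers were compared directly as well. Activated B against resting T had 10 of 44 genes higher, against 13% of all genes, and 5 lower, against 9.93% of all genes, and none differed by 2-fold. Of these, 4 of the 10 were Fanconi genes and 3 were genes of homologous recombination. Rad54l was the largest at 0.84 (SE 0.11, adjusted p = 2.5e-05), with Bard1 at 0.69, Rad50 at 0.66 and Fanci at 0.65. The 5 lower genes were Parp1 (-0.61, SE 0.10, adjusted p = 0.0002), Apex1 (-0.41), Xrcc1 (-0.37), Atr (-0.35) and Atm (-0.28). They were 11.4% of the 44, close to the share over all genes, and nothing about a pathway is read from them. The dividing cell markers were also higher in activated B, with 8 of 11 called and a median of 0.44. T cell markers were higher (11 of 11, median 4.04) and B cell markers lower (11 of 11, median -4.5). The part of these markers in the result was not tested.

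Resting B against activated T had 3 of 44 genes higher, against 9.68% of all genes, and 10 lower, against 8.82% of all genes. The largest difference was that of Parp1 (-1.45, SE 0.10, adjusted p = 1.1e-08), the only one of 2-fold or more. The Fanconi core genes Fanca (-1.0, SE 0.10, adjusted p = 5.9e-07) and Fancb (-0.77, SE 0.11, adjusted p = 7.2e-05) followed, with Rad51c (-0.65), Chek2 (-0.57), Brca1 (-0.52), Brca2 (-0.46), Polq (-0.36), Polb (-0.34) and Rad50 (-0.27). Higher in resting B were Xrcc4 (0.42, SE 0.10, adjusted p = 0.00501) and Nbn (0.39), the latter again only on its brighter probe set. The third gene called higher was Brip1, but its means of 5.01 and 4.55 both lay below the background, so no difference is read from it. Brca2 lay below the background in resting B, so the size of its difference is not exact. Of the dividing cell markers, 4 were higher and 1 lower in resting B. T cell markers were higher (11 of 11, median 4.07) and B cell markers lower (11 of 11, median -3.42). The part of these markers in the result was not tested.

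**Figure D5:**
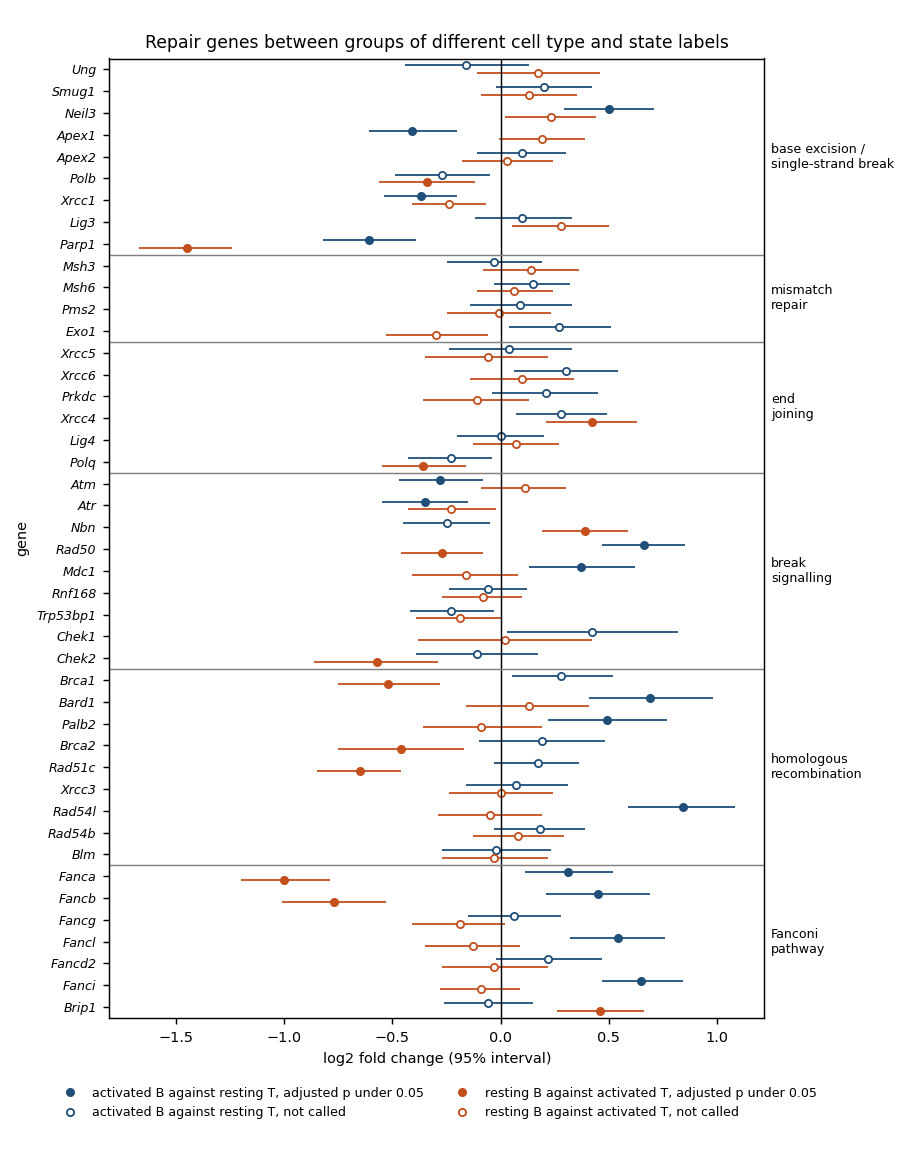
Log2 fold change of each measured repair gene between activated B and resting T arrays in blue and between resting B and activated T arrays in red, with 95% intervals, filled where the adjusted p was under 0.05. All but Parp1 lie within 1 of 0 in both comparisons, and Parp1 lies to the left in both at -0.61 and -1.45, while the red point of Brip1 compares levels below the background.

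The remaining comparisons share arrays with those above. Between resting B and resting T, 30 of 44 genes were lower in B, against 19.0% of all genes, and 2 were higher, against 16.1% of all genes, Xrcc4 (0.55, SE 0.10, adjusted p = 0.00028) and Lig4 (0.32, SE 0.09, adjusted p = 0.0115). The median was -0.81. Dividing cell markers were lower in resting B (11 of 11, median -3.21), and T cell markers higher (11 of 11, median 4.67). Between activated B and activated T, 30 were higher in B, against 21.8% of all genes, and 5 were lower, against 18.9% of all genes, with a median of 0.64. The lower ones were Parp1 (-0.58), Polb (-0.35), Trp53bp1 (-0.32), Atr (-0.27) and Lig4 (-0.25). Here dividing cell markers (11 of 11, median 4.06) and T cell markers (11 of 11, median 3.64) were higher in activated B. The part of these markers in both results was not tested. Over all comparisons, 5 of the 44 genes were called in none, namely Smug1, Apex2, Msh3, Xrcc5 and Prkdc. The share over all genes was 44.6%, with the genes at or below the background counted in.

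Repair genes outside the list were counted in the same way. Of 98 further repair genes, 56 were higher and 11 lower in activated than resting B, against 19.7% and 16.7% of all genes, with a median of 0.46. In activated against resting T, 16 were higher and 44 lower, against 15.9% and 17.8% of all genes, with a median of -0.22. In the B comparison, 7 of 14 further genes of base excision repair were higher, 7 of 9 of mismatch repair, 3 of 6 of end joining, 14 of 19 of break signalling, 9 of 16 of homologous recombination, 5 of 11 of the Fanconi pathway and 5 of 7 of translesion synthesis. In the T comparison, 7, 6, 0, 15, 8, 2 and 3 of these were lower, in that order. The largest changes in the B comparison were those of Fignl1, a partner of the recombinase (3.92, and -3.15 in the T comparison), and Trip13, an ATPase of checkpoint signalling (3.72 and -2.49). The replication ligase Lig1 (2.80 and -2.40), the flap nuclease Fen1 (2.16 and -2.20) and the clamp loader subunit Rfc4 (2.43 and -2.29) went the same way. Nucleotide excision repair removes bulky damage in resting and dividing cells alike. Of its 16 genes, 6 were higher and 4 lower in the B groups (median 0.07) and 5 higher and 3 lower in the T groups (median 0.03), with Ddb1 at 1.05 and -0.77 and Xpc at -0.67 and 0.77.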

How the data were processed

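Gene expression was measured on 12 arrays of 4 labelled groups. Log2 values were deposited by the authors for each array and probe set. They were made with RMA by the submitters' processing notes (background correction, quantile normalization and summary of the probes). The RMA version is not given in the sources used here. Since RMA brings all arrays to 1 distribution (array medians 5.50 to 5.68), a change common to most genes is lost, and low levels are compressed. Arrays hold no read depth, and 3 per group limit the precision.

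Of 34760 probe sets, 21640 carried 1 symbol, 1321 several and 11799 none. For the 954 genes with several, the probe set with the highest mean was used. All 12 arrays were fitted with the lmFit and eBayes steps of limma 3.58.1 in R 4.3.3, with a mean per labelled group and 8 residual degrees of freedom. P-values were adjusted by Benjamini-Hochberg over 19937 genes and called under 0.05. Where a group mean was below the background, a bound was set with each dim array at the higher of its value and the background. Simulated data with known changes served to test the steps. Figures were drawn in matplotlib 3.10.9 from tables made in pandas 2.3.3 with numpy 2.4.6 under Python 3.11.15.

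The genes and lists were chosen with earlier results of these data known. Every repair gene on the list could be named. Of the other repair lists those with the largest changes among the called were named, and of marker lists the first 2. The deviations of same-numbered arrays correlated with r = 0.22, 0.16 and 0.23 in the T groups over 12170 genes. In the B groups r was -0.06, 0.06 and 0.25. Arrays of different numbers were not compared, so this check cannot show whether the numbers pair the arrays. At most 0.07% of values were identical between any pair of arrays. Alternatives were other centrings, 2 filters on dim genes, quantile normalization, averaged probe sets, the groups compared alone, an intensity trend, array weights, the replicate block and leaving out each array. Some genes are not analysed here.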

Additional observations from a re-analysis of the deposited data

Results flagged for a closer look

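For 33 of the 44 repair genes the change between resting and activated arrays differed between the labelled B and T groups by the interaction test (31 positive and 2 negative, adjusted p under 0.05 with limma). Groups of 3 arrays were not searched for outlying samples.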

How the results depend on the processing

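No call changed direction under any alternative. The counts of 30 higher and 28 lower repair genes in the B and T comparisons stayed within 1.5 times under all of them, and the counts that moved were small ones. Lower in activated than resting B were 2 genes, which became 1 with median centring, with the groups compared alone and with the replicate block, 5 with centring on the 75th percentile and with quantile normalization, and 1 to 2 with an array left out (1 without resting B replicate 2 or 3, activated B replicate 1, 2 or 3, or resting T replicate 4). Higher in activated than resting T were 2, which became 1 with median centring, with the groups compared alone, with the intensity trend and with the replicate block, and 1 to 2 with an array left out (1 without resting B or activated B replicate 2 or 3, resting T replicate 4, 5 or 6, or activated T replicate 4 or 5). Lower in activated B than resting T were 5, which became 9 with centring on the 75th percentile, quantile normalization or the filter on the mean, 8 with the filter on 3 arrays, and 3 to 6 with an array left out (3 without activated B replicate 3). Higher in resting B than resting T were 2, which became 4 with centring on the 75th percentile or quantile normalization. Lower in activated B than activated T were 5, which became 3 with median centring and 2 to 5 with an array left out (2 without activated B replicate 3 or activated T replicate 4, 3 without activated B replicate 2 or activated T replicate 5). The negative interaction was called for 2, and for 1 with median centring, 5 with centring on the 75th percentile or quantile normalization, and 1 to 3 with an array left out (1 without resting B replicate 2 or 3, activated B replicate 1 or 2, resting T replicate 4 or 6, or activated T replicate 4 or 5). The causes were not tested.

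The replicate block changed 2 of 176 single-gene results, Xrcc4 in the B groups and Lig4 in the T groups, and no other call. Calls near the threshold were the fragile ones: Lig4 in the T groups was lost in 13 alternatives (highest adjusted p 0.19), Xrcc4 in the B groups in 9 (0.188), Fancg in the T groups in 7 (0.115) and Xrcc3 in the B groups in 6 (0.171). Between resting B and activated T, Rad50 was lost in 11 (0.165). Between activated B and resting T, Atm was lost in 10 (0.151) and Fanca in 5 (0.116). For the sum, Palb2 was lost in 11 (0.117), Brca2 in 8 (0.0888) and Mdc1 in 7 (0.0949).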
